A study of Mus musculus with 6 samples.

Results

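The genes described here are 8 members of the interleukin-6 (IL-6) family pathway: the ligand genes Il6, Osm (oncostatin M) and Lif (leukaemia inhibitory factor), the receptor genes Il6ra, Il6st, Osmr and Lifr, and the feedback inhibitor gene Socs3. They were chosen by symbol, and all 8 were found among the 34745 genes of the count table. All 8 also passed the filter on low counts, which left 13815 genes. Levels were measured by mRNA sequencing of wild-type (WT) mouse bone marrow-derived macrophages (BMDMs), cells differentiated in culture from marrow progenitors, here with M-CSF at 20 ng/ml. All 6 libraries came from cells stimulated with R848 at 100 ng/ml for 6 h, a small-molecule agonist of endosomal Toll-like receptors. Of these, 3 came from cells pretreated with the solvent DMSO and 3 from cells pretreated with a KAT8-inhibitor, directed against the lysine acetyltransferase KAT8 (MOF), an enzyme best known for acetylating histone H4. The labels name neither the compound, its dose, the length of pretreatment nor the age of the mice, and do not say whether replicates came from separate animals. A p-value here therefore rests on variation among these 6 libraries alone, and that variation may be technical. Unstimulated cells were not analysed here, so every difference is between stimulated cultures.

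IL-6 family cytokines act through receptor complexes that share the signalling chain gp130, encoded by Il6st. IL-6 first binds its own receptor chain, encoded by Il6ra, whereas oncostatin M and LIF signal through gp130 paired with the chains encoded by Osmr and Lifr. These complexes activate Janus kinases and STAT3. STAT3 induces Socs3, whose protein binds gp130 and the kinases and shuts the signal down. In macrophages Toll-like receptor stimulation induces Il6 through NF-kB and C/EBP factors, and SOCS3 limits the response to IL-6.

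Promoter windows of Il6, Lif and Socs3 are shown because these genes lie in the same pathway but differed in how they responded. Each holds 300 bases, from 250 before to 50 after a RefSeq start in GRCm38.p6, and is read 5′ to 3′ on the strand of the gene. Il6 is at chr5:30012864-30013163 (plus strand), Lif at chr11:4257318-4257617 (plus strand) and Socs3 at chr11:117969317-117969616 (minus strand). Capitals mark matches, on either strand, to a STAT motif (TTCNNNGAA), an AP-1 motif (TGANTCA), a C/EBP motif (TTNNGNAA), a CRE core (ACGTCA) or an NF-kB consensus.
Il6: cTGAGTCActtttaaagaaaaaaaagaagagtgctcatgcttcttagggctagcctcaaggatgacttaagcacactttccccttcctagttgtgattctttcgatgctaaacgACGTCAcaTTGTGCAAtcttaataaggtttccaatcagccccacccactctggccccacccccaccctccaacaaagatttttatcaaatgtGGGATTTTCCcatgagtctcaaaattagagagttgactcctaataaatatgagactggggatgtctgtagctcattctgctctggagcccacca
Lif: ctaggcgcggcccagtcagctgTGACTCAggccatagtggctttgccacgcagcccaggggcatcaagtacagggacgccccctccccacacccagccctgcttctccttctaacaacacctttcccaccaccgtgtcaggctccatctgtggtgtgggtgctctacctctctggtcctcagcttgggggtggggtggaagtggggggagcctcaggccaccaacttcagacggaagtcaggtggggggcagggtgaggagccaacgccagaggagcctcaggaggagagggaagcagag
Socs3: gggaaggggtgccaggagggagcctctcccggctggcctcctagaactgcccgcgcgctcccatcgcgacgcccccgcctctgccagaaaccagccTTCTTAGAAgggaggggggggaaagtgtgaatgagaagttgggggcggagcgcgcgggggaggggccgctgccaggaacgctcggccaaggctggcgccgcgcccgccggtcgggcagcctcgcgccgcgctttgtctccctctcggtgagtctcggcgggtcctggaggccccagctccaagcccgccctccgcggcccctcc
The Il6 window held an NF-kB match at -44 to -35 from the start, a C/EBP match at -128 to -121, a CRE core at -136 to -131 and an AP-1 match at -249 to -243. The AP-1 match of Lif lay at -228 to -222, and the STAT match of Socs3 at -154 to -146. Of 32851 windows of this length in the RefSeq table, 4.51% held the NF-kB consensus, 7.81% the AP-1 motif, 8.30% the STAT motif, 7.51% the CRE core and 40.7% the C/EBP motif. The Il6 window was 44.0% G and C, against 63.7% for Lif, 73.3% for Socs3 and a median of 52.7% over all windows. Windows were found for 7 of the 8 genes, with 2 for Lifr. No window was available for Osm, so the ligand gene that rose most is not covered here. A match describes letters and does not show that a factor binds there.

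Library totals ranged from 18441352 to 25089320 counts, and levels are given as CPM, counts scaled to library size (TMM) in the usual per-million unit. The 2 groups stood apart on the principal component with most variance (71.7%). Of all 13815 genes 51.5% were called at an adjusted p under 0.05, 24.9% as higher and 26.5% as lower with the inhibitor. Scaling by library totals alone moved the median log2 fold change by 0.11 and the share of calls that were higher from 48.4% to 63.2%. Kat8 mRNA was 16.1 ± 0.727 CPM with DMSO and 20.8 ± 0.351 CPM with the inhibitor (SD, n = 3), and is no measure of enzyme inhibition. The cultures held abundant macrophage marker mRNA, with 10 markers summing to 12168 to 13906 CPM with DMSO and 7894 to 7987 CPM with the inhibitor, and 7 of the 10 fell. Most of the fall in this sum came from Lyz2, with means of 8596 CPM and 4190 CPM. Csf1r, Cd68 and Spi1 did not pass, and all inhibitor values of Cd68 were above its DMSO values. Stromal markers were also plentiful, and no marker of either list was at 0. The summed stromal level was 4502 to 5305 CPM with DMSO and 2020.2 to 2153 CPM with the inhibitor, and 8 of 10 fell, while Pdgfra, a receptor gene that marks fibroblasts, was at 418 ± 30.3 and 442 ± 20.5 CPM (SD, n = 3) and did not pass. In bulk samples fewer cells of a type and less RNA per cell cannot be told apart. Stromal cells also express IL-6 family genes, and the part of the stromal signal in the results below was not tested.

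The ligands moved in opposite directions. With the inhibitor, Il6 mRNA was 3.25-fold lower and Osm mRNA 2.30-fold higher, while Lif rose 1.24-fold. Among the receptors Osmr and Il6ra rose about as little as Lif, and Il6st, Lifr and Socs3 did not pass the test. In all, 4 of the 8 genes rose and 1 fell, or 5 called of 8, beside 51.5% of all tested genes, so the number called is close to the background. Their log2 fold changes had a median of 0.18, against 0.01 over all tested genes. The values of the 2 groups did not overlap for the same 5 genes, beside 60.6% of all tested genes.

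**Figure D1:**
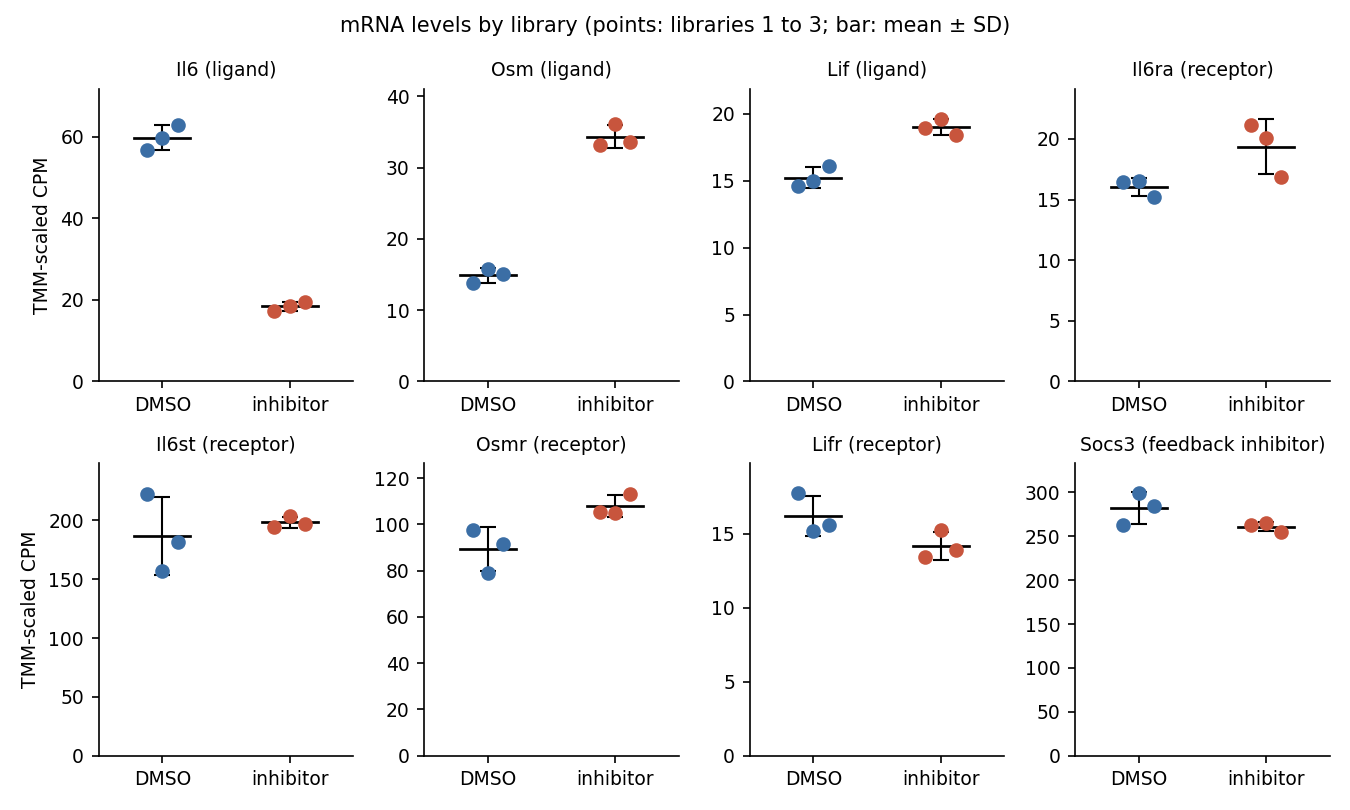
TMM-scaled CPM (y axes, starting at 0) of the 8 genes in 3 DMSO and 3 inhibitor libraries, 1 point each, with the mean and SD. Il6 fell from 59.8 to 18.4 CPM and Osm rose from 14.9 to 34.4 CPM with narrow spread, while the DMSO libraries of Il6st range from 157 to 223 CPM, a range that holds all its inhibitor values.

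Il6, the founding ligand and a main driver of the acute-phase response, was at 56.8, 59.6 and 62.9 CPM in DMSO libraries 1 to 3 and at 17.3, 18.5 and 19.5 CPM in inhibitor libraries 1 to 3. Every DMSO library was thus above every inhibitor library, and the means were 59.8 ± 3.05 and 18.4 ± 1.11 CPM (SD, n = 3). The log2 fold change was -1.70 (SE 0.070, 95% confidence interval -1.86 to -1.54, adjusted p = 9.57e-07 from the quasi-likelihood test of edgeR adjusted by Benjamini-Hochberg over all tested genes, as for every adjusted p given here). Of all tested genes 315, or 2.28%, fell at least as much. Il6 (ENSMUSG00000025746) lies on chromosome 5 at 30013114 to 30019981 on the plus strand of mm10. Summed stromal and macrophage markers both fell in the same libraries, and any link to the fall of Il6 was not tested.

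Oncostatin M, made mainly by activated myeloid and T cells, showed the opposite response. In DMSO libraries 1 to 3 Osm was at 13.8, 15.8 and 15.0 CPM, and inhibitor libraries 1 to 3 held 33.2, 36.2 and 33.7 CPM. All inhibitor values were above all DMSO values, with means of 14.9 ± 1.00 and 34.4 ± 1.61 CPM (SD, n = 3). The log2 fold change was 1.20 (SE 0.075, interval 1.03 to 1.38, adjusted p = 6.91e-06), and 309 tested genes, or 2.24%, rose at least as much. Osm (ENSMUSG00000058755) lies on chromosome 11 at 4236420 to 4241026 on the plus strand.

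Lif, which keeps mouse embryonic stem cells undifferentiated and acts widely in inflammation, lies next to Osm in the same orientation, at 4257557 to 4272514 on chromosome 11 (ENSMUSG00000034394), with its start 21.1 kb away. It was at 14.6, 15.0 and 16.1 CPM in cells given DMSO, and at 18.9, 19.6 and 18.4 CPM after the inhibitor. The groups did not overlap, but the rise was small, with a log2 fold change of 0.32 (SE 0.073, interval 0.15 to 0.48, adjusted p = 0.00741). The intervals of Osm and Lif did not overlap each other. Of the other genes whose starts lie within 100 kb of Osm or Lif, 4 were tested. Ccdc157 rose (log2 fold change 0.74, from 6.59 ± 1.51 to 10.9 ± 0.392 CPM, adjusted p = 0.00534) and Tbc1d10a fell (-0.46, from 29.0 ± 1.50 to 21.1 ± 0.692 CPM, adjusted p = 0.000726). Sf3a1, a splicing factor gene at 84.0 ± 6.05 CPM with DMSO, had a log2 fold change of 0.13 and did not pass (adjusted p = 0.104; it passed without DMSO replicate 1, at 0.17 and adjusted p = 0.0337, and with library totals, at 0.24 and adjusted p = 0.0149), and neither did Castor1, an arginine sensor of the mTORC1 pathway, at 0.20 (adjusted p = 0.287). The genes around Osm and Lif therefore did not all move in the same direction.

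Because Il6 and Osm were counted in the same libraries, their ratio does not depend on scaling. For each Il6 count, DMSO libraries 1 to 3 held 0.243, 0.265 and 0.239 Osm counts, and inhibitor libraries 1 to 3 held 1.92, 1.96 and 1.73. The log2 ratio rose from -2.01 ± 0.079 to 0.90 ± 0.097 (SD, n = 3), a difference of 2.91 or 7.50-fold. Osm was below Il6 in all 3 DMSO libraries and above it in all 3 inhibitor libraries. A two-sided exact permutation test gave p = 0.1, the smallest that 3 libraries against 3 allow. Divided by exon length, Il6 made up 71.0% ± 0.661 of the mRNA of the 3 ligands with DMSO and 28.0% ± 1.39 with the inhibitor, Osm 18.9% ± 0.864 and 55.9% ± 1.04, and Lif 10.1% ± 0.204 and 16.1% ± 0.517 (SD, n = 3). Summed without regard to length, the CPM of the 3 ligands were 85.2 to 94.1 with DMSO and 69.4 to 74.3 with the inhibitor.

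**Figure D2:**
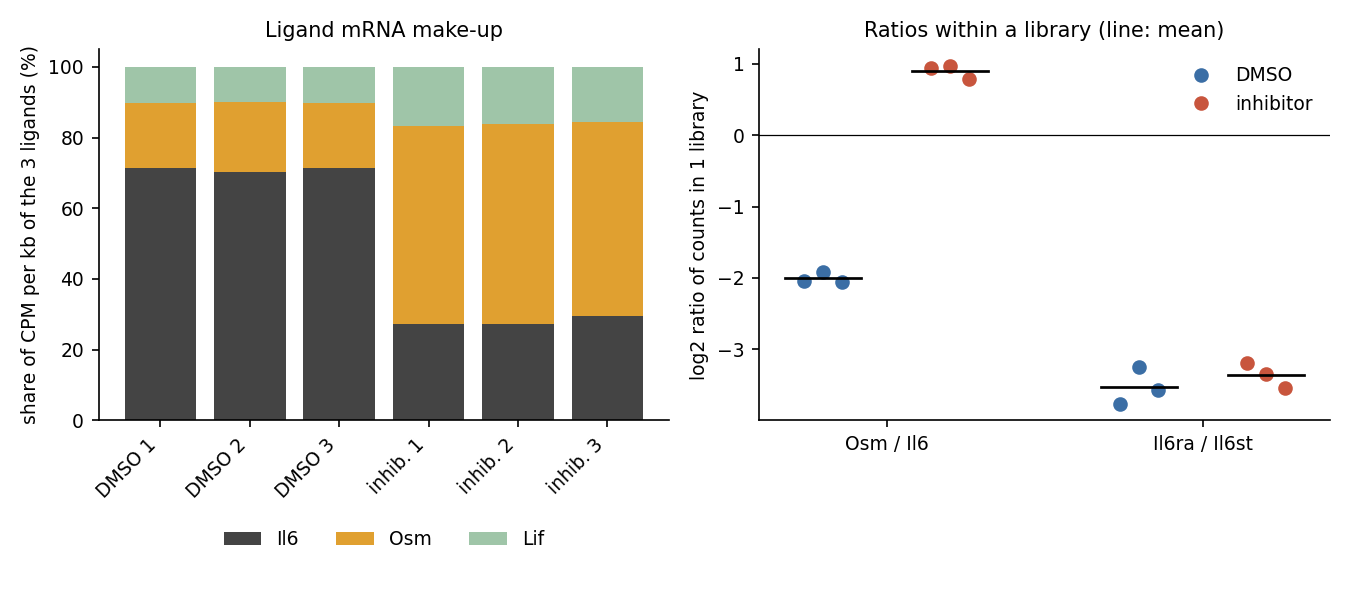
Left, share (%) of Il6, Osm and Lif in their summed CPM per kb of exon in each library. Right, log2 ratio of the counts of 2 genes within each library, with the mean as a line; the Osm to Il6 ratio lies near -2.01 in DMSO and near 0.90 in inhibitor libraries, while the groups overlap for Il6ra to Il6st.

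Receptor mRNAs differed less than those of the ligands. Il6ra, the chain that gives a cell its response to IL-6, had DMSO values of 16.4, 16.5 and 15.2 CPM and inhibitor values of 21.1, 20.1 and 16.9 CPM. Inhibitor library 3 was only just above the highest DMSO library. Il6ra was called as higher (log2 fold change 0.27, SE 0.098, interval 0.05 to 0.50, adjusted p = 0.0465), but this call was lost in 5 of 6 fits that left out a library, with adjusted p up to 0.150, and with DESeq2 (adjusted p = 0.0740). It held without inhibitor replicate 3, the lowest of its group (0.36, adjusted p = 0.0123). Il6ra (ENSMUSG00000027947; chromosome 3, 89864059 to 89913196, minus strand) shares 242 exon bases with Gm42809, transcribed from the other strand, and the 2 are not separable in counts made without strand.

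Osmr, the chain that pairs with gp130 to bind oncostatin M, had DMSO values of 97.4, 79.0 and 91.4 CPM and inhibitor values of 105, 105 and 113 CPM. The inhibitor libraries were all above the DMSO libraries (log2 fold change 0.27, SE 0.077, interval 0.10 to 0.45, adjusted p = 0.0177). Without inhibitor replicate 3 the adjusted p was 0.0600, and the call was lost. Osmr (ENSMUSG00000022146; chromosome 15, 6813577 to 6874969, minus strand) is much more strongly expressed in fibroblasts and other stromal cells than in leukocytes, as background. In the same libraries 8 of 10 stromal and 7 of 10 macrophage markers fell. Which cells gave the Osmr signal was not tested.

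Lifr, the chain for LIF, lies on the same chromosome (ENSMUSG00000054263; 7090614 to 7197489, plus strand), with its start 215.6 kb from that of Osmr. Values of 17.7, 15.2 and 15.6 CPM in DMSO libraries overlapped those of 13.4, 15.2 and 13.9 CPM in inhibitor libraries. The log2 fold change was -0.19 (SE 0.091, interval -0.40 to 0.02, adjusted p = 0.116).

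Il6st, the shared signalling chain gp130, had the most mRNA per length among Il6ra, Il6st, Osmr and Lifr. Its DMSO values were 223, 157 and 182 CPM and its inhibitor values 194, 204 and 197 CPM. The inhibitor values lay within the DMSO range, with DMSO replicate 1 at its top and replicate 2 at its bottom. The log2 fold change was 0.09 (SE 0.110, interval -0.17 to 0.34, adjusted p = 0.542). Without DMSO replicate 1 it was 0.22 (adjusted p = 0.0286) and passed, and without DMSO replicate 2 it was -0.031, so no direction can be given. The interval allows a rise of up to 0.34 on the log2 scale. Il6st (ENSMUSG00000021756) lies on chromosome 13 at 112464070 to 112510086 on the plus strand. The log2 ratio of Il6ra to Il6st counts was -3.53 ± 0.261 with DMSO and -3.36 ± 0.175 with the inhibitor (SD, n = 3), a difference of 0.17 (two-sided exact permutation test, p = 0.4).

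Socs3, the feedback inhibitor, had DMSO values of 263, 299.7 and 284 CPM and inhibitor values of 263, 265 and 255 CPM. DMSO library 1 lay among the inhibitor libraries, so the groups overlapped. The log2 fold change was -0.11 (SE 0.053, interval -0.23 to 0.01, adjusted p = 0.108). With TMM scaling the upper bound of 0.01 leaves little room for a rise. Library totals alone moved the median log2 fold change of all tested genes by 0.11, which is more than this bound. Without DMSO replicate 1 Socs3 was called as lower, at -0.17 (adjusted p = 0.0130), and with library totals it was at -0.0032 (adjusted p = 0.959). The change of Socs3 was thus far smaller in size than those of Il6 and Osm, whose intervals lay wholly outside that of Socs3. Socs3 (ENSMUSG00000053113) lies on chromosome 11 at 117966079 to 117970047 on the minus strand. In that annotation its gene starts upstream of the RefSeq start used for the window above.

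**Figure D3:**
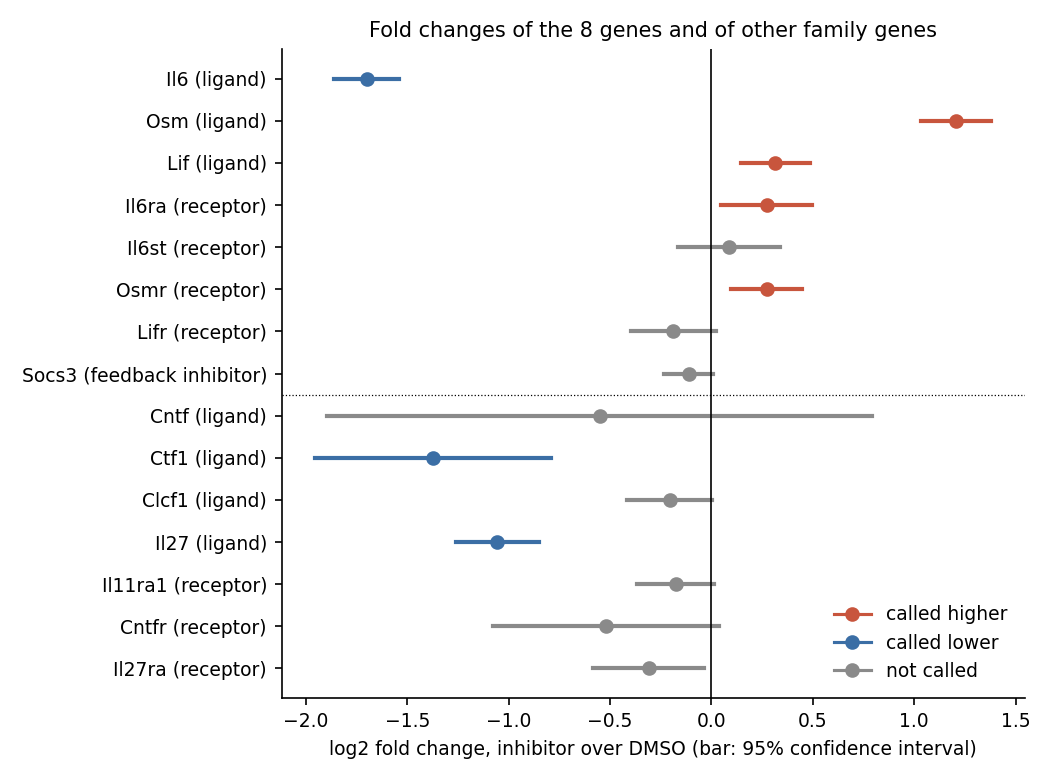
Log2 fold change, inhibitor over DMSO (x axis), with its 95% confidence interval for the 8 genes (above the dotted line) and 7 of the 8 tested other family genes (below), coloured by call at an adjusted p under 0.05. Il6 at -1.70 and Osm at 1.20 stand on opposite sides of 0, and the intervals of Il6st, Lifr and Socs3 include 0.

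Levels of different genes were compared per kb of exon, taking the union of annotated exons. With DMSO the order was Socs3 (97.6 ± 6.35 CPM per kb), Il6 (24.6 ± 1.26), Il6st (16.9 ± 2.99), Osmr (7.37 ± 0.775), Osm (6.55 ± 0.440), Lif (3.50 ± 0.184), Il6ra (1.86 ± 0.0834) and Lifr (1.50 ± 0.127; SD, n = 3). Only Osmr and Osm, among neighbours in that order, had overlapping values. With the inhibitor Il6, at 7.58 ± 0.456 CPM per kb, came after Il6st, Osm and Osmr, and Osm, at 15.1 ± 0.710, came after Socs3 and Il6st alone. In that group no neighbours in the order overlapped. Socs3 stayed highest at 90.3 ± 1.76 CPM per kb, and Lifr lowest at 1.32 ± 0.0863. The union of exons can be longer than the transcript a cell makes, which lowers the level per kb of genes with many isoforms.

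Other ligands and receptors of the family were measured as well. Of 12 listed genes 8 were tested, 2 fell and 6 did not pass (median log2 fold change -0.42), beside 26.5% lower of all tested genes. Il27, which encodes a subunit of interleukin-27, a cytokine that also signals through gp130, fell. Its DMSO values were 30.2, 35.7 and 30.8 CPM and its inhibitor values 16.5, 14.5 and 15.5 CPM (log2 fold change -1.05, SE 0.089, adjusted p = 3.38e-05). Il27 thus moved the same way as Il6 and the opposite way from Osm. Its exons share 103 bases with Apobr on the opposite strand. Ctf1, cardiotrophin, fell from 1.63 ± 0.119 to 0.622 ± 0.158 CPM (adjusted p = 0.00234), a low level based on 32 to 36 counts with DMSO and 11 to 20 with the inhibitor. Clcf1, a ligand of the ciliary neurotrophic factor receptor, was at 14.2 ± 0.524 and 12.3 ± 1.13 CPM (SD, n = 3; adjusted p = 0.0933). Il11ra1, the interleukin-11 receptor, was at 133 ± 11.8 and 118 ± 10.4 CPM (adjusted p = 0.107), and mouse has near-identical copies of this gene whose reads may be shared. Il27ra was at 7.81 ± 0.951 and 6.32 ± 0.297 CPM (adjusted p = 0.0592). Cntf and Cntfr had means under 2 CPM in both groups and did not pass. Of the 1073 exon bases of Cntf, 847 are shared with Zfp91 on the same strand, so its counts may belong to that gene. Leaving out DMSO replicate 1 gave a call for Il11ra1 (log2 fold change -0.25, adjusted p = 0.0260) and Il27ra (-0.41, 0.0179), and leaving out inhibitor replicate 3 gave a call for Clcf1 (-0.28, 0.0485). Il11 had 0, 1 and 6 counts in DMSO and 3, 0 and 4 counts in inhibitor libraries, Il31 and Il31ra had at most 2 counts in a library, and Ctf2 had 0 in all 6. A count of 0 allows up to 0.120 to 0.163 CPM, taking 3 counts as the limit and counting error only, so differences in these 4 genes were not detectable at this depth.

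Downstream of gp130, 6 of 13 genes for kinases, STAT factors and adaptors fell and 7 did not pass (median -0.01), beside 26.5% lower and 51.5% called in either direction of all tested genes. Jak2 fell from 288 ± 7.08 to 215 ± 2.88 CPM (log2 fold change -0.42, adjusted p = 5.59e-05). Its fellow kinases Jak1, at 352 ± 15.2 and 348 ± 4.63 CPM, and Tyk2, at 89.3 ± 2.37 and 89.1 ± 3.38 CPM, did not pass (SD, n = 3; adjusted p = 0.816 and 0.957). Stat3, the main transcription factor of the pathway, was at 202 ± 13.8 and 173 ± 6.42 CPM (-0.22, adjusted p = 0.0122), a call that library totals did not give (-0.11, adjusted p = 0.169). The adaptors Grb2 (-0.55) and Shc1 (-0.32), which link the receptor to the Ras pathway, fell as well.

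Among other negative regulators of cytokine signalling, 3 of 14 rose, 5 fell and 6 did not pass (median 0.02). The number called is close to the 51.5% of all tested genes (24.9% higher, 26.5% lower). Ptpn6, the phosphatase SHP-1 of blood cells, fell most, with a mean of 304 ± 12.7 CPM in DMSO and 117 ± 9.86 CPM in inhibitor libraries (SD, n = 3; -1.37 on the log2 scale, adjusted p = 1.79e-06). Ptpn1, a phosphatase of Janus kinases, fell by 0.40 on the log2 scale. Relatives of Socs3 differed in direction. Socs1, the inhibitor of interferon signalling, went from 10.3 ± 0.873 to 7.72 ± 0.590 CPM (-0.42, adjusted p = 0.0119) and Socs5 from 61.8 ± 4.02 to 50.1 ± 2.68 CPM. Socs4 rose from 39.3 ± 1.93 to 58.6 ± 3.77 CPM and Socs7 from 35.1 ± 0.143 to 52.8 ± 0.668 CPM (adjusted p = 0.000181 and 3.14e-05). Pias3, an inhibitor of STAT3, rose by 0.31 on the log2 scale.

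Soluble IL-6 receptor arises when proteases cut the chain from the cell surface. Of 7 genes for such proteases, their partners and sorting proteins 1 rose, 3 fell and 3 did not pass (median -0.45), beside 24.9% higher and 26.5% lower of all tested genes. Adam17, the main sheddase, had wide spread, at 351, 579 and 601 CPM with DMSO and 264, 424 and 436 CPM with the inhibitor, and did not pass (log2 fold change -0.45, adjusted p = 0.146). Library 1 was the lowest of each group, and without DMSO replicate 1 Adam17 passed (-0.66, adjusted p = 0.0273). Timp3, an inhibitor of that protease made largely by stromal cells, fell from 497 ± 41.9 to 202 ± 15.7 CPM (SD, n = 3; -1.30 on the log2 scale, adjusted p = 5.02e-06). In the same libraries 8 of 10 stromal and 7 of 10 macrophage markers fell, and a link to Timp3 was not tested. Exons of Timp3 share 1733 bases with Syn3 on the opposite strand. The inactive rhomboid gene Rhbdf1 fell by 0.77 on the log2 scale and Furin, a proprotein convertase, by 0.51. Sorl1, a sorting receptor known to bind the IL-6 receptor, rose from 40.7 ± 1.82 to 55.1 ± 3.29 CPM (adjusted p = 0.000697).

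Of 27 tested genes known as STAT3 targets in various cells, 13 fell, 5 rose and 9 did not pass (median -0.28), beside 26.5% lower and 24.9% higher of all tested genes. Many of them also answer to NF-kB or other factors. Those that fell included the acute-phase genes Hp (haptoglobin), from 38.0 ± 0.412 to 10.5 ± 1.17 CPM, Lcn2 (lipocalin), from 46.1 ± 3.27 to 14.4 ± 0.952 CPM, and Saa3 (serum amyloid A), from 1159 ± 36.9 to 431 ± 14.1 CPM (SD, n = 3; log2 fold changes -1.85, -1.68 and -1.43). Ccnd1, cyclin D, fell 4.61-fold, from 83.3 ± 7.36 to 18.1 ± 2.06 CPM. Summed stromal and macrophage marker mRNA were both lower in the same libraries, and a link to these falls was not tested. In the other direction Fos rose from 6.30 ± 0.576 to 14.0 ± 1.55 CPM, the kinase gene Pim3 from 39.6 ± 5.52 to 76.5 ± 2.90 CPM and the interleukin-4 receptor gene Il4ra from 215 ± 2.85 to 383 ± 14.0 CPM. Fgl2, a prothrombinase of macrophages, rose by 0.57 on the log2 scale.

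The list of factors that act on the Il6 gene or its mRNA was split. Of 24 genes 5 rose, 9 fell and 10 did not pass (median -0.05), a number called close to the 51.5% of all tested genes (24.9% higher, 26.5% lower). Nfkbiz, whose protein IkappaB-zeta is needed for Il6 induction in macrophages, fell from 283 ± 24.2 to 153 ± 1.73 CPM (SD, n = 3; -0.89 on the log2 scale, adjusted p = 1.26e-05). Cebpd, another activator of Il6, fell from 79.8 ± 7.47 to 42.2 ± 0.920 CPM (-0.92, adjusted p = 2.07e-05), and Nfkb2 by 0.44 on the log2 scale. Atf3, a repressor of Il6 transcription in stimulated macrophages, rose from 248 ± 27.9 to 548 ± 20.9 CPM (1.14, adjusted p = 1.08e-05), and the AP-1 genes Fos (1.15) and Fosl1 (0.57) rose as well. Among genes for mRNA decay proteins Zfp36 (tristetraprolin) rose by 0.33 on the log2 scale, from 73.3 ± 1.40 to 91.9 ± 3.65 CPM, and Zfp36l1 fell by 1.01, from 85.1 ± 3.52 to 42.2 ± 0.998 CPM. Zc3h12a, whose protein Regnase-1 degrades Il6 mRNA, was at 234 ± 10.6 and 220 ± 7.61 CPM and did not pass (adjusted p = 0.153), though it did without DMSO replicate 1 (-0.13, adjusted p = 0.0395). Fos, Junb, Irf1, Cebpb and Cebpd stand in both this list and that of STAT3 targets. Exons of Ccnd1, Il4ra, Cebpd, Fosl1 and Zfp36l1 overlap those of a gene on the opposite strand by 562 to 1672 bases, so part of their counts may belong to that gene. The same holds for Nfkb2, which shares 531 exon bases with AC114539.1 and 299 with Psd.

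**Figure D4:**
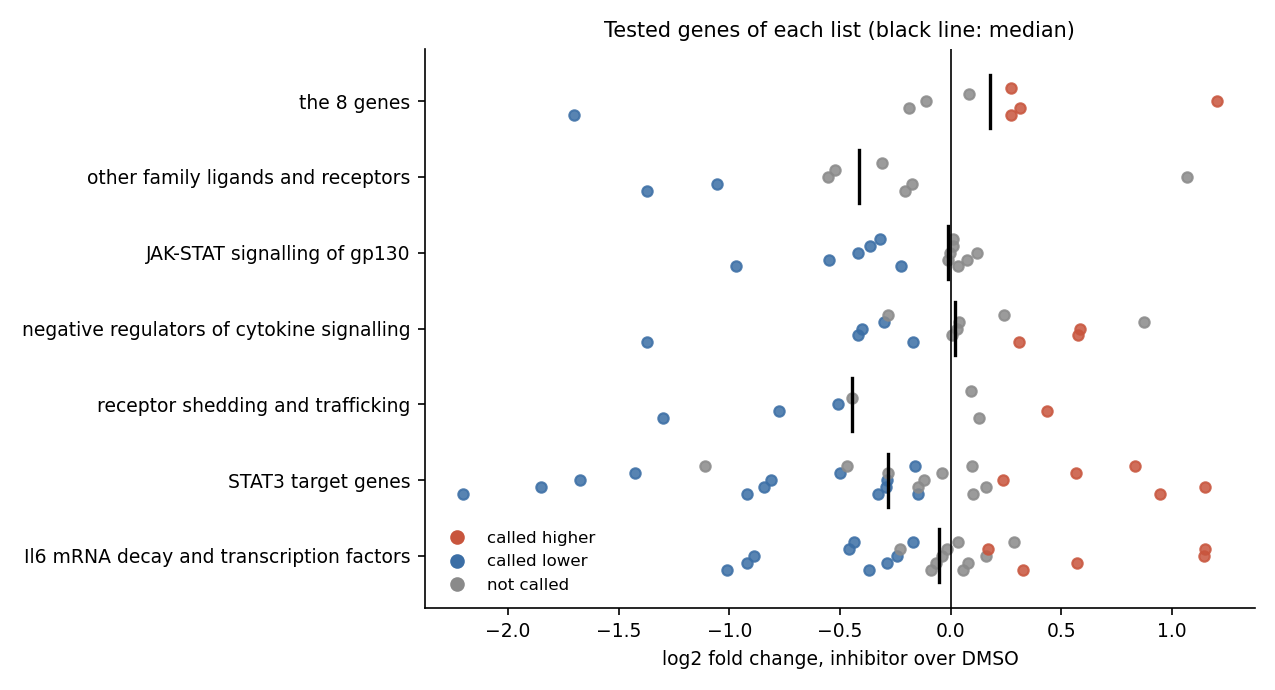
Log2 fold change, inhibitor over DMSO (x axis), of each tested gene in the 7 lists, coloured by call, with the list's median as a black line (points are spread vertically for legibility). The 8 genes span -1.70 to 1.20, the STAT3 target list has its median at -0.28, and every list but the other family genes and the gp130 signalling list holds genes called in both directions.

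**Figure D5:**
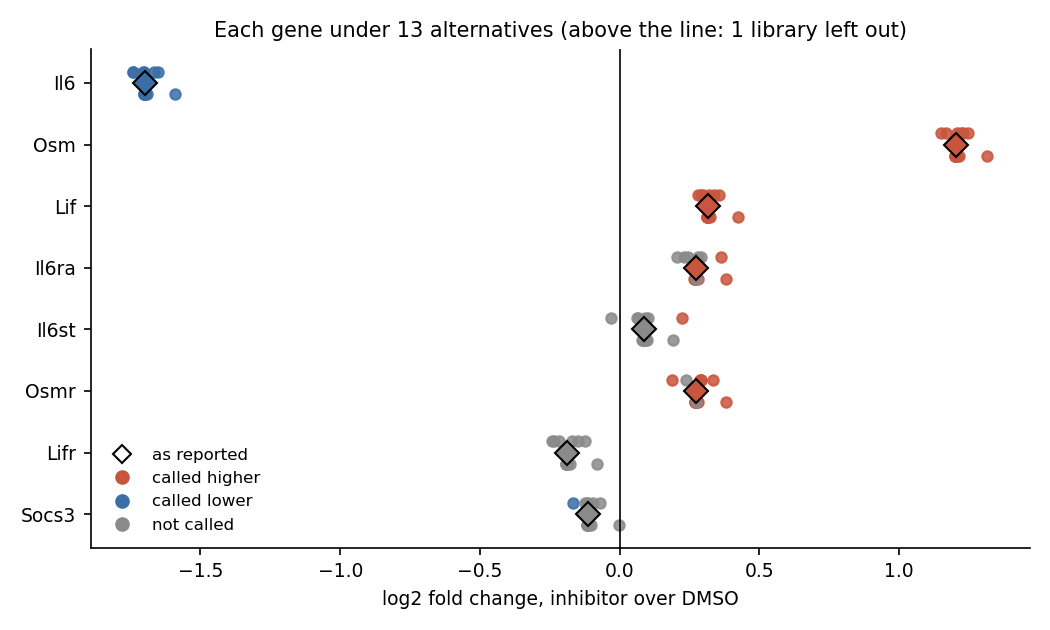
Log2 fold change of each of the 8 genes (x axis) as reported (diamond) and under 13 alternatives, with fits that left out a library above the line and other settings below. Il6 stayed between -1.74 and -1.59 and Osm between 1.15 and 1.31, all called, while points of Il6ra, Osmr, Il6st and Socs3 differ in call.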

How the data were processed

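The authors deposited a table of unnormalized read counts for Ensembl genes in 6 libraries. The submitters' processing notes name build mm10, edgeR, HISAT2 and StringTie 1.3.0 without saying what each did. How reads were counted, with which annotation and strand setting, is not given in the sources used here. Libraries were grouped by their titles. The 8 genes and all lists were chosen with earlier results of these data known.

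Tests used edgeR 4.0.16 under R 4.3.3 and its quasi-likelihood F (TMM scaling, filterByExpr with a minimum count of 10, pretreatment as the only factor), and p-values were adjusted by Benjamini-Hochberg over all 13815 tested genes and called under 0.05. An SE is the size of the log2 fold change divided by the root of F. The fit was tested on simulated counts in which 67, 67 and 66 genes were changed 1.5-, 2- and 4-fold. It called 64.2%, 79.1% and 97.0% of them, and 17 of 177 calls were unchanged genes. In this simulation the share of unchanged genes among the calls was thus above the 0.05 of the threshold. Far fewer genes were changed there than were called in these data. Library totals of 18441352 to 25089320 counts gave a floor of 0.120 to 0.163 CPM for a count of 0 (3 counts). Within groups the chi-square per degree of freedom between libraries was 8.77 to 13.5, so none was a copy of another. Of the genes listed, 478 had no symbol.

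Named were the 8 genes, the tested other family genes, the 4 called genes with the smallest p in each direction of each list, the genes starting within 100 kb of Osm, Lif, Osmr or Lifr, the leading marker genes and the 3 genes nearest in profile to Il6, Osm and Socs3, and Kat8; Pdgfra, Jak1, Tyk2, Stat3, Zc3h12a, Adam17 and genes of untested ligands were named after their values were seen. Some genes of the rule appear only in lists, and 2 are not reported here. Gene positions are those of GENCODE M21 for the same build, counted from 1, and promoter sequences are from RefSeq (GRCm38.p6). Alternatives were the size factors of DESeq2 1.42.0, library totals, no filter, a mean of at least 5 CPM, DESeq2 itself, a block for the replicate number, a threshold of 0.01 and fits without each library in turn.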

Additional observations from a re-analysis of the deposited data

How the results depend on the processing

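Il6, Osm and Lif kept direction and call under all 13 alternatives, and Lifr stayed uncalled under all 13. With an adjusted p under 0.01 only 3 of the 8 genes were called, 2 of them higher, since Il6ra and Osmr dropped out, and 2257 genes were higher among all tested. Leaving out a library gave 4 to 6 called (6081 to 6880 of all genes), 3 or 4 higher and 1 or 2 lower. Without DMSO replicate 1 Socs3 was newly called as lower and Il6st as higher, while the call of Il6ra was lost. Il6st ranged from -0.031 to 0.22 over the fits that left out a library. DESeq2 called 4 (6462 of all genes). With library totals 22 genes of the pathway lists were higher (13 as reported), Jak1 went from -0.014 to 0.096, Tyk2 from -0.0034 to 0.11, Zc3h12a from -0.09 to 0.019 and Rnh1 from -0.11 to 0.0044, none called, and with no filter Tyk2 was at 0.0059. Without a library Jak1 ranged from -0.045 to 0.017, Tyk2 from -0.032 to 0.021 and Gata2, a gene of mast cells and megakaryocytes, from -0.14 to 0.23. The log2 difference in the Osm to Il6 ratio stayed at 2.87 to 2.96 and that of Il6ra to Il6st at 0.05 to 0.31 without a library. The replicate numbers did not pair the libraries (correlations of deviations -0.034, -0.0030 and 0.024), and with a replicate block 5 of the 8 genes were again called, and 6725 of all genes; Adam17 then passed (-0.44, adjusted p = 0.000405). Of 885 values for 69 other named genes, 858 kept direction and call. Beyond what each setting itself changes, the causes were not tested. Depth limits what can be said of listed genes with few counts, such as Il11, Il31 and Ctf2.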

Other observations

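Profiles over the 6 libraries were compared with those of 10364 other genes by the root mean square distance of mean-centred log2 CPM. With 2 groups this measure reflects mostly the group difference. Nearest to Il6 were Tmem98 (distance 0.058, from 61.8 ± 3.80 to 20.1 ± 1.41 CPM), Sv2a (0.067) and Eef1a1 (0.071), the last a translation elongation factor gene with means of 5735 ± 348 CPM in DMSO and 1853 ± 21.1 CPM in inhibitor libraries (SD, n = 3), that has many processed pseudogenes. Nearest to Osm were Gadd45b, a stress-inducible gene (distance 0.017, from 147 ± 12.2 to 343 ± 13.8 CPM), Ccdc57 (0.037) and Nrf1 (0.045). Nearest to Socs3 were Clptm1 (0.0080), Rnh1 (0.0096) and Cwc15 (0.013), none of which passed the test (adjusted p = 0.104, 0.118 and 0.0984 by edgeR), though without DMSO replicate 1 each did (0.00940, 0.0131 and 0.0199).

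Markers of cell types besides macrophages differed widely in level. Col1a2 and Acta2, genes of fibroblasts and smooth muscle, had log2 fold changes of -1.35 and -3.21, from DMSO means of 1701 ± 115 and 462 ± 17.8 CPM (SD, n = 3). Lyz2, the most abundant macrophage marker, fell from 8596 ± 632 to 4190.0 ± 37.1 CPM. Summed endothelial markers were at 55.7 to 57.1 CPM with DMSO and 13.1 to 13.7 CPM with the inhibitor. Most of that sum with DMSO was Vwf, which went from 51.1 ± 1.08 to 9.40 ± 0.386 CPM. Kdr fell from 3.97 ± 0.423 to 2.57 ± 0.0691 CPM, Cdh5 was at 1.11 ± 0.209 and 1.17 ± 0.0196 CPM and did not pass, and Pecam1 and Tek were not tested. Summed dendritic cell markers were at 18.2 to 20.5 and 10.8 to 11.6 CPM, and neutrophil markers at 6.41 to 7.16 and 2.08 to 2.93 CPM, with S100a9, Ly6g, Elane and Retnlg at 0 in all 6 libraries. Markers of mast cells or basophils summed to 3.20 to 5.58 CPM over the 6 libraries and those of B cells to 1.70 to 3.20 CPM. T or NK, erythroid and megakaryocyte lists each summed to under 2 CPM in every library.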
